A study of Drosophila melanogaster with 3 samples.

Results

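The genes examined were 10 Polycomb and Trithorax group genes of Drosophila melanogaster, ph-p, ph-d, Pc, Psc, Su(z)2, E(z), pho, brm, trx and ash1, out of 13945 protein-coding genes in the annotation. They were taken by name, and every peak summit from 5 kb before to 5 kb after each gene was collected as its window. The 10 windows, joined where they overlapped, covered 208 kb and held 37 summits of the thresholded peak list described below. Of these, 3 lay in the windows of both ph-d and ph-p.

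The data were chromatin immunoprecipitation sequencing (ChIP-seq) of CG2678, a zinc finger protein also named kipferl and known from the ovary as a guide of the heterochromatin protein Rhino, and the experiment asked where the tagged protein was enriched. The single group was whole embryos of both sexes, 0 to 24 h old, from a transgenic line that stably expressed CG2678 with GFP fused at its C terminus, immunoprecipitated with an antibody to GFP in 3 biological replicates. What drives the transgene was not given in the labels, and untagged embryos and the control alignment shared by the replicates were not analysed here. The deposited peak lists comprised 1 of 30000 peaks for each replicate and 1 of 30000 peaks for the pooled replicates. A further list held 9459 peaks that passed the authors' threshold on the irreproducible discovery rate (IDR), a measure of how well ranks hold across replicates. Every IDR summit in the windows had the same signal and rank in the pooled list. Being in the IDR list thus does not show that a single peak was found in each replicate, and this was looked up for each summit. Peaks are given below by their rank in the IDR list, with 1 the strongest. The lists carry no read counts, so neither sequencing depth nor counting error could be stated, and errors are those between the replicates. Whole embryos mix many cell types, so strong binding in few cells and weak binding in many cannot be told apart, nor can binding be told apart from open chromatin with these lists alone. The lists hold no RNA levels, so the embryonic label could not be checked against marker genes.

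Polycomb group proteins keep developmental genes such as the Hox genes silent, and Trithorax group proteins keep them active. Polycomb repressive complex 1 (PRC1) contains Polyhomeotic, made from the tandem genes ph-p and ph-d, the chromodomain protein Polycomb (Pc), which reads methylated lysine 27 of histone H3, and Posterior sex combs (Psc), whose paralog is Su(z)2. E(z) is the methyltransferase of complex 2 (PRC2), which places that mark, and pho encodes a DNA-binding protein that helps bring the complexes to Polycomb response elements. On the Trithorax side, brm encodes the ATPase of the SWI/SNF chromatin remodeller, trx a methyltransferase of histone H3 lysine 4, and ash1 a methyltransferase of histone H3 lysine 36.

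All of these genes except pho had at least 1 IDR summit in the window, 9 of 10 genes, against 53.7% of all protein-coding genes. Long genes have longer windows, and the median window was 21.6 kb for the 10 genes and 12.2 kb for all protein-coding genes. Among the 3767 protein-coding genes whose window was 13.6 to 33.5 kb long, the range of the 10 genes, 62.6% had an IDR summit. The median count was 3.50 IDR summits per window for the 10 genes and 1.00 for all protein-coding genes, or 1.73 and 0.546 per 10 kb of window. The pooled list, which is longer, also had a summit in 9 of the 10 windows, against 62.9% of all protein-coding genes. With 1 group of samples there is no test between samples, so these counts describe the lists and do not set the 10 genes apart from others.

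**Figure D1:**
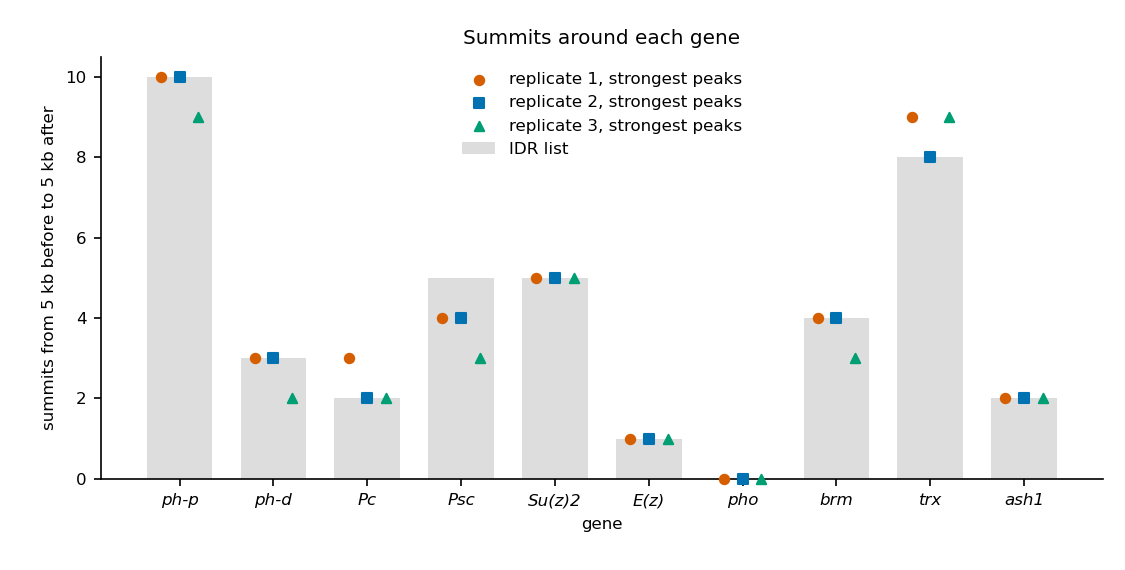
Number of peak summits (vertical axis) from 5 kb before to 5 kb after each gene (horizontal axis). Grey bars are the IDR list and points are the strongest 9459 peaks of each replicate; ph-p stood highest with 10 IDR summits and 10, 10 and 9 in the replicates, and pho had 0 throughout.

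The replicates gave nearly the same count for each gene. In the strongest 9459 peaks of replicates 1, 2 and 3, the joined windows held 38, 36 and 34 summits, and the plot of summits around each gene shows that no gene differed by more than 1 summit between replicates. The ph-p window was the fullest, with 10 IDR summits, a count reached by 1.09% of protein-coding genes. The trx window held 8, a count reached by 1.98% of protein-coding genes, and the windows of Psc and Su(z)2 held 5 each, reached by 6.96%. These shares, here and below, take no account of window length. It was 33.5 kb at trx and 22.2 kb at ph-p, against a median of 12.2 kb over protein-coding genes. Per 10 kb of window, ph-p held 4.51 IDR summits, trx 2.38, Su(z)2 2.34 and Psc 2.00. The windows of brm, ph-d, Pc, ash1 and E(z) held 4, 3, 2, 2 and 1, and 53.7% of protein-coding genes had as many as E(z) or more.

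Sequences of 8 summits are given here so that their base composition can be read from the letters. The first 6 are the strongest of those whose 101 bp held no UTR base, leaving aside Psc and Su(z)2, so the summits of rank 22 (ph-p), 38 (Pc window), 40 (Psc window) and 170 (E(z)) are not among them. Each line is the 101 bp centred on a summit, 5′ to 3′ on the minus strand, which is the coding strand of these genes (dm6 coordinates, bases from the RefSeq copy of that assembly). Capitals mark the longest run made of A and T alone. The last pair of lines are weaker summits of the trx first intron, shown because the run was 34 bases in one and 7 in the other.
CG14100 promoter beside ash1, rank 4 (chr3L:19590564-19590664): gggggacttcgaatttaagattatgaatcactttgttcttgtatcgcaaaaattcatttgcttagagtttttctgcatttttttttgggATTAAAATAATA
ph-p promoter, rank 10 (chrX:2137255-2137355): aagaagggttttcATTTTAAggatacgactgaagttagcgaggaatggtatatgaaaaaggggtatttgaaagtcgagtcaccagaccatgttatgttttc
upstream of ph-d, rank 63 (chrX:2124060-2124160): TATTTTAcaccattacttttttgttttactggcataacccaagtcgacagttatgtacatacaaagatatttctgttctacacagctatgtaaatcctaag
trx first intron, rank 68 (chr3R:14283823-14283923): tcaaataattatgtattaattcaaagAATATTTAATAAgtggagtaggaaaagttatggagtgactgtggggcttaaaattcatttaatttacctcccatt
brm and Arl1 promoter, rank 136 (chr3L:15982957-15983057): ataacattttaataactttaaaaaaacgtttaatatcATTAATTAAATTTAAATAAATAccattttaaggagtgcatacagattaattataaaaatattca
ph-p first intron, rank 408 (chrX:2135291-2135391): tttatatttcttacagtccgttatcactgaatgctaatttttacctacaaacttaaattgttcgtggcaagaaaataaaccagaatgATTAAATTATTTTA
trx first intron, rank 3284 (chr3R:14279794-14279894): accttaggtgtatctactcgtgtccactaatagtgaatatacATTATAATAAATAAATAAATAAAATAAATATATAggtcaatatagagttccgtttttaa
trx first intron, rank 6935 (chr3R:14284592-14284692): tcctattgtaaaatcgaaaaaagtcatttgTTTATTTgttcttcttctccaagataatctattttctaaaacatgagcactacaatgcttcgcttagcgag

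The runs of A and T in these windows were 12 bases beside ash1, 7 at the ph-p promoter, 7 upstream of ph-d, 12 in the trx first intron and 22 between brm and Arl1. GC content within 50 bp of the brm summit was 14.9%, against 53.5% in windows of the same length 300 bp to either side. The lowest GC content of the 37 summits was 9.90% at E(z), against 51.0% in its flanks. The run of A and T was 33 bases there and 35 at the strongest summit of the Psc window, neither of which is printed. The ph-p promoter summit was less extreme, with 37.6% against 48.0% in its flanks.

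Over the 37 summits, median GC content was 27.7% at the summit and 45.0% in the flanks. It was lower at the summit than in the flanks in 34 of 37, or 91.9%, against 79.9% of all 9459 IDR summits, whose medians were 30.7% and 44.1%. The 9459 weakest pooled summits had medians of 42.6% and 41.6%. The 3 exceptions were the Psc promoter summit at +122 bp, with 60.4% against 42.6% in its flanks, the Su(z)2 promoter summit at +35 bp, with 46.5% against 38.6%, and the CG17027 promoter within brm, with 45.5% against 37.6%. The longest run of A and T had a median of 12 bases at the 37 summits and 10 at all IDR summits. Low GC content at the summit was thus shared with the IDR list as a whole.

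**Figure D2:**
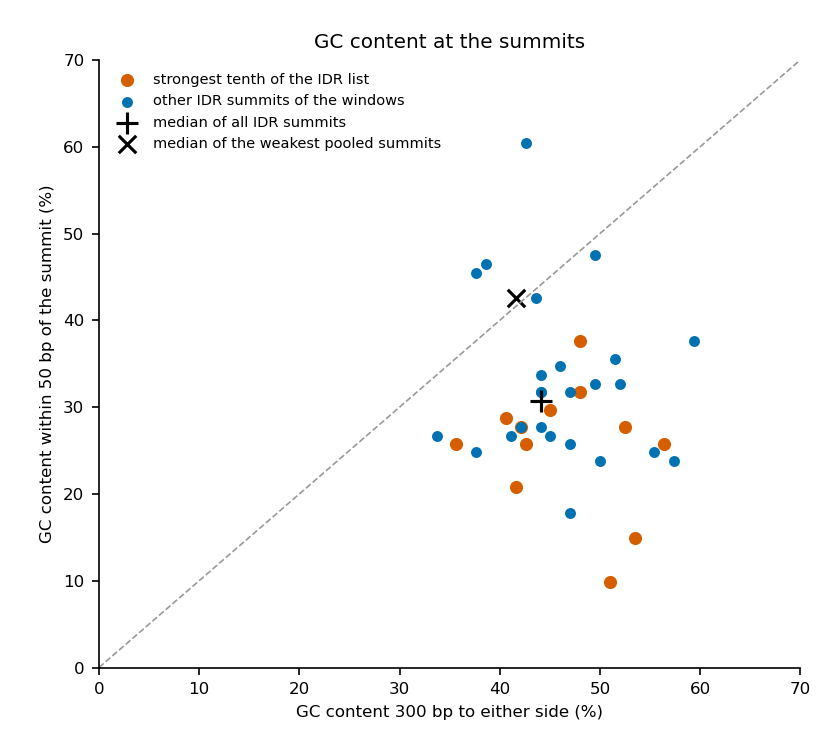
GC content (%) within 50 bp of each of the 37 IDR summits (vertical axis) against that of windows 300 bp to either side (horizontal axis). Points under the dashed line of equality, 34 of 37, have lower GC content at the summit; the plus marks the medians of all IDR summits (30.7% and 44.1%) and the cross those of the weakest pooled summits (42.6% and 41.6%).

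Short words were then counted within 50 bp of the summits on both strands, and occurrences of different words could share bases. TATAAA was in 8 of the 37 windows, or 21.6%, against 25.1% of all IDR summits and 12.8% of the weakest pooled summits. AAAAAA was in 6, or 16.2%, against 27.8% and 21.4%. GCCAT, the core of the sequence that Pho binds, was in 3, or 8.11%, against 12.8% and 21.0%. GAGAG, the core bound by GAGA factor, was in 2, or 5.41%, both at the Psc promoter, against 8.77% and 12.5%. Each of these shares, over few windows, was below that of all IDR summits.

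Promoters held the largest share of the summits. Of the 37 IDR summits, 20 were within 500 bp of an annotated transcription start site (TSS), 13 were in introns and 4 were intergenic, which is 54.1%, 35.1% and 10.8%. Over all IDR summits these shares were 34.3%, 45.2% and 17.5%. The windows were drawn around genes, so each holds a TSS, whereas the whole list is not limited to such windows. No share over the windows of other genes was taken. In the windows the promoter share was 37.8% with a distance of 250 bp and 40.5% with the 5′-most TSS of each gene alone. The promoter share in the strongest 9459 peaks of replicates 1, 2 and 3 was 57.9%, 52.8% and 50%, a mean of 53.6% ± 4.0 (SD, n = 3). Only 10 of the 20 promoter summits were at a TSS of the 10 genes, and the other 10 were at the TSS of a neighbouring gene alone. Of the 10 at their own TSS, 2 were also within 500 bp of a divergent neighbour, at E(z) and at brm. For 15 of the 37 summits the nearest TSS was that of another gene.

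An IDR summit lay within 500 bp of their own TSS in 6 of the 10 genes, ph-p, ph-d, Psc, Su(z)2, E(z) and brm, against 22.5% of all protein-coding genes. The same 6 had one matched within 100 bp among the strongest 9459 peaks of all 3 replicates, against 15.8%. In the replicates' own lists the count was 8, 6 and 6 genes, a mean of 6.67 ± 1.15 (SD, n = 3), against 29.5%, 23.2% and 21.7% of protein-coding genes in replicates 1, 2 and 3. Replicate 1 was the high one, and the genes it added were Pc and trx. No own-promoter summit was found for pho or ash1 in any replicate.

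Matching across replicates was more frequent than in the list as a whole. Of the 37 summits, 31, or 83.8%, were matched in all 3 replicates, 3 in a pair of replicates and 3 in 1, against 62.0% of all IDR summits matched in 3. Their median signal was 761, against 520.5 over all IDR peaks, in the authors' own units (237 to 19817 over the list). The part that this higher signal had in the matching was not tested. In all, 7 of the 37 ranked in the strongest 100 and 12 in the strongest 945 of the 9459 in the list. Of those in the strongest 100, the summits of rank 10, 22, 63 and 68 were nearest a TSS of ph-p, ph-d or trx. Those of rank 4, 38 and 40 were nearest the TSS of a neighbouring gene.

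**Figure D3:**
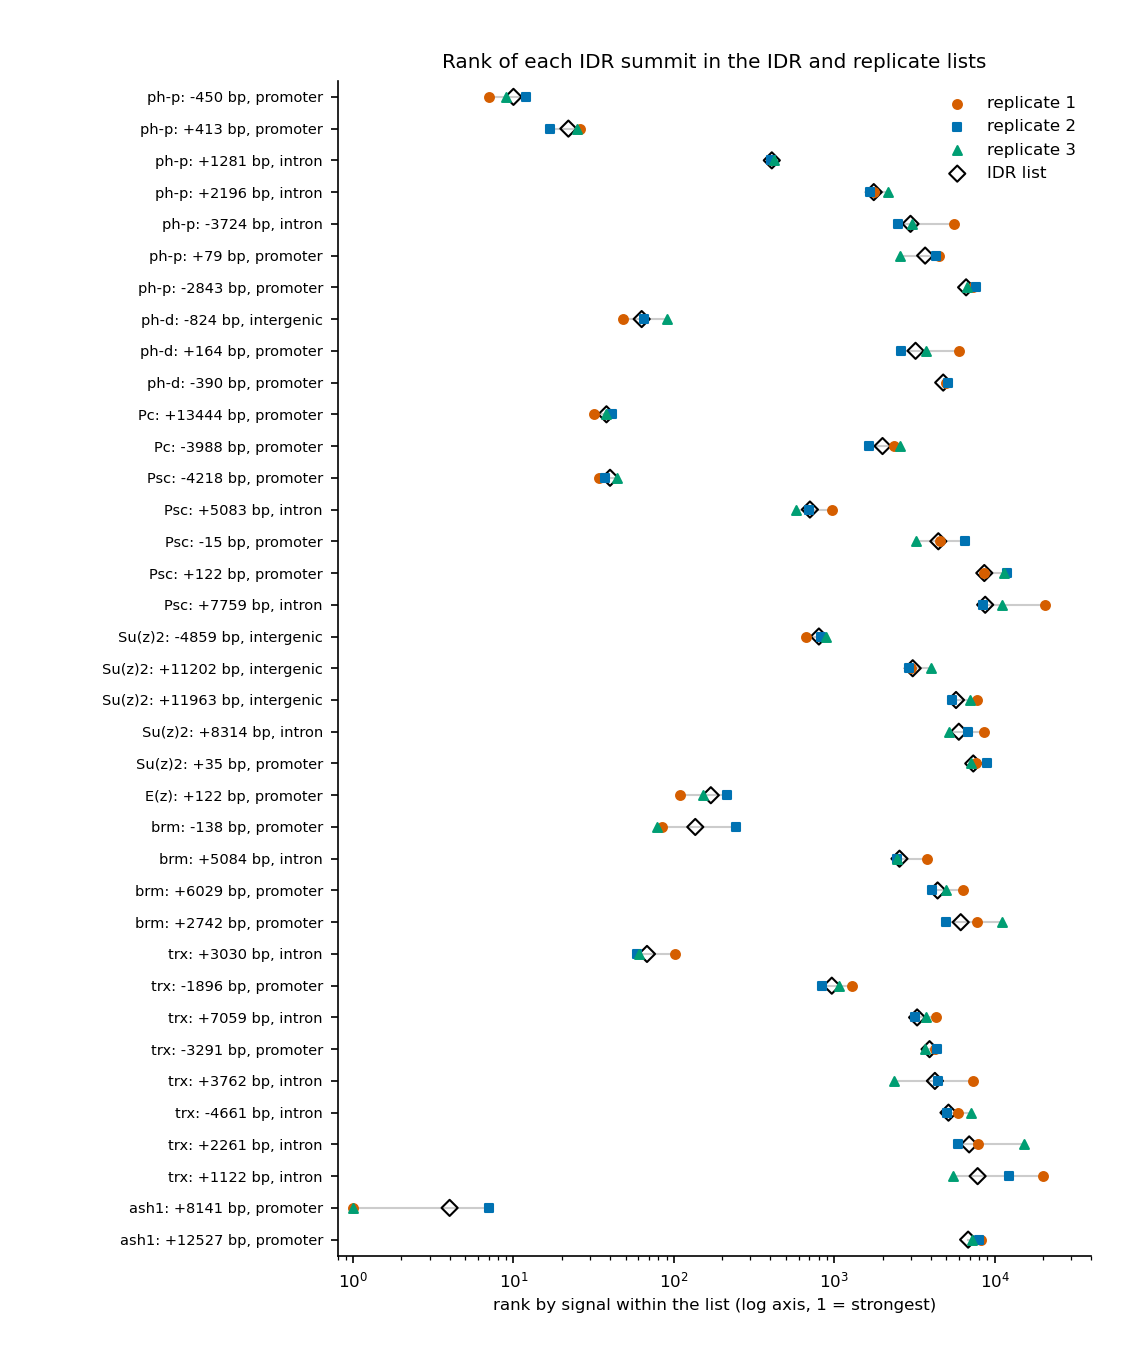
Rank by signal (horizontal log axis, 1 is strongest) of each of the 37 IDR summits, named by gene, distance in bp from the nearest TSS of that gene and genomic class. Coloured points are the 3 replicates and open diamonds the IDR list; the strongest are at +8141 bp of ash1 (rank 4) and -450 bp of ph-p (rank 10), and replicates spread most at the weak summits, such as Psc +7759 bp (20544, 8481 and 11128).

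The plot of ranks shows that the summits in the strongest 100 of the IDR list ranked 102 or better in every replicate, while weak ones moved further. The 6 summits not matched in all replicates had ranks from 4776, near the middle of the IDR list, to 8727. They were at ph-d (-390 bp), Psc (+122 and +7759 bp), brm (+2742 bp) and trx (+1122 and +2261 bp). Summit distances are from the nearest annotated TSS of the gene named. That TSS can lie inside the gene, so distances within a gene are not always on the same axis. In the full lists of 30000 peaks, 36 of the 37 had a summit within 100 bp in all 3 replicates, and the exception was ph-d at -390 bp, with none in replicate 3.

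Among the PRC1 genes, the strongest peak of a gene's own promoter was at ph-p (chrX:2126210-2138371, minus strand, 3 annotated TSSs). A single interval of 1360 bp at chrX:2136948-2138307 carried 2 summits, at -450 and +413 bp from the nearest ph-p TSS, and 0.365% of IDR peaks were as wide or wider. The summit at -450 bp, with a signal of 13392, stood at rank 10, with 7, 12 and 9 in replicates 1, 2 and 3 (9.33 ± 2.52, SD, n = 3). That at +413 bp, with a signal of 10914, stood at rank 22, with 26, 17 and 25 in the same order. The order of this pair was the same in every replicate.

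Further IDR summits followed along ph-p. A promoter summit at +79 bp of another of its TSSs, signal 668, came at rank 3685 (4485, 4332 and 2584 in replicates 1, 2 and 3). In the first intron, the summit at +1281 bp ranked 408 (403, 401 and 419) and the one at +2196 bp ranked 1763 (1760, 1677 and 2161). The rank of the +1281 bp summit was nearly equal in the 3 replicates. Upstream, 2 summits were at D2hgdh, which encodes D-2-hydroxyglutarate dehydrogenase and runs the other way from ph-p. They had rank 6635 in its promoter (7306, 7611 and 6693) and rank 2987 in its intron (5542, 2479 and 3058).

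The sister gene ph-d (chrX:2115727-2123286, minus strand) had 3 IDR summits, a count reached by 20.4% of protein-coding genes. The strongest was at -824 bp, in the 2923 bp between ph-d and the end of ph-p, with a signal of 7533 and rank 63 (48, 65 and 91 in replicates 1, 2 and 3, 68.0 ± 21.7, SD, n = 3). At the ph-d promoters the summits were far weaker. The one at +164 bp ranked 3211 (5992, 2611 and 3744). The other was at -390 bp of a second, internal TSS, which places it within the gene, 1.104 kb past the 5′-most TSS. It ranked 4776 (4983 and 5086 in replicates 1 and 2). Within 500 bp of a TSS, the strongest summit thus ranked 10 at ph-p and 3211 at ph-d, and ph-p ranked ahead in each replicate. This order depended on the promoter distance. Within 250 bp it was the +79 bp summit at ph-p (rank 3685) against the +164 bp summit at ph-d (rank 3211), with ph-p ahead in replicates 1 and 3 and behind in replicate 2, and within 1000 bp the ph-d summit at -824 bp (rank 63) also counted. These genes are tandem copies, and 18% of the ph-p window and 18.3% of the ph-d window consisted of 36-bp words found more than once in the genome. Within the peaks themselves the share was 5.36% for the wide ph-p interval, 0.577% for the ph-d peak at +164 bp and 0 for the others. Reads from such words may be assigned to either copy, and how the authors treated them was not given in the sources used here.

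Pc itself (chr3L:21306138-21318020, minus strand) had no IDR or pooled summit at its promoter. Replicate 1 had one at -24 bp with rank 9015, and replicate 3 had one at -207 bp with rank 26390, so the signal there was weak and not shared. Both IDR summits of its window were at other genes. One, 13444 bp downstream of the Pc TSS and past its 3′ end, lay at +82 bp of CG11309 and also within 500 bp of the TSS of CG7632, with a signal of 9158 and rank 38 (32, 41 and 38 in replicates 1, 2 and 3, 37.0 ± 4.58, SD, n = 3). The other was at -373 bp of an internal TSS of Rab26, which places it within that gene, and ranked 1999 (2341, 1653 and 2554). Rab26 encodes a small GTPase of vesicle transport. Repeated 36-bp words made up 41.4% of the Pc window, the largest share of the 10, and 0 of these peaks.

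**Figure D4:**
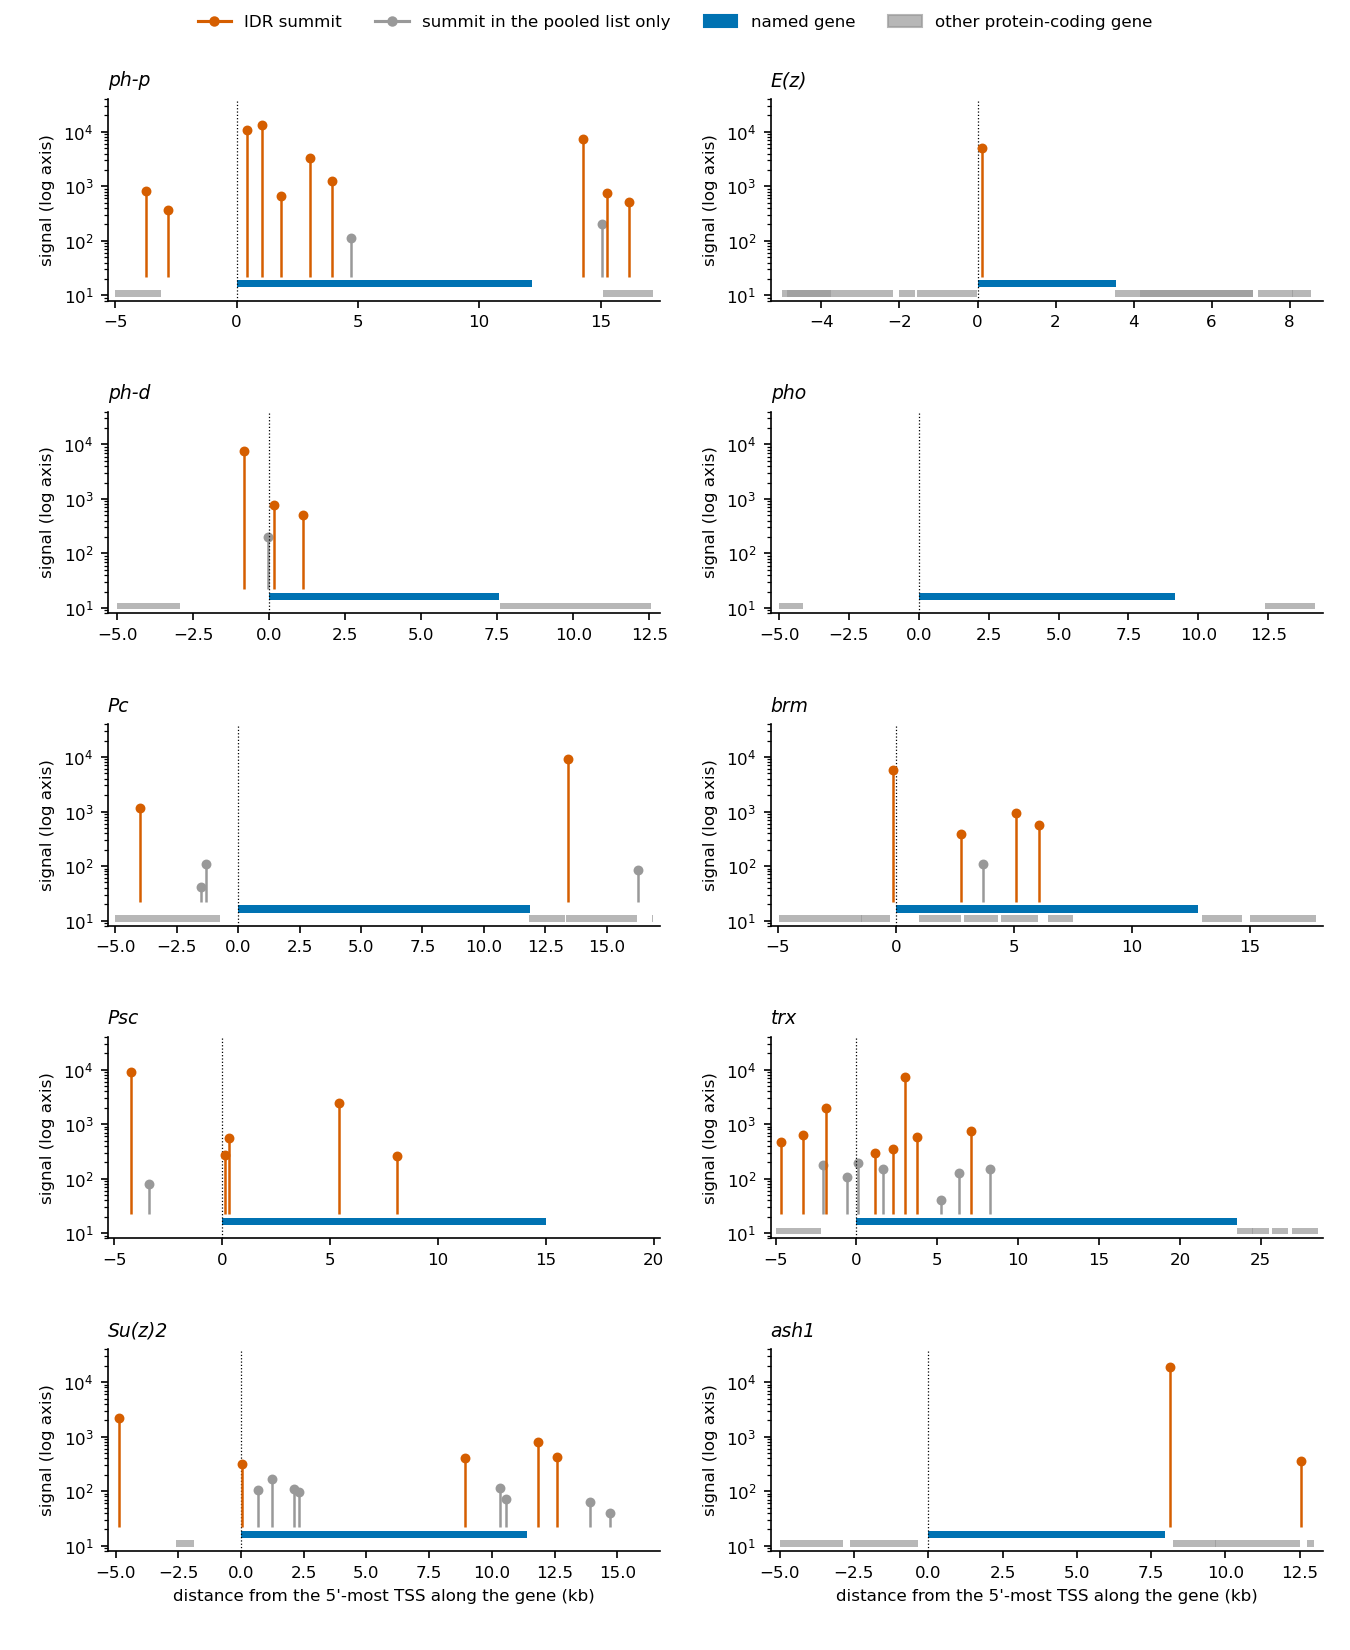
Peak summits around each of the 10 genes, drawn along the direction of transcription: horizontal axis, distance in kb from the 5′-most TSS (dotted line); vertical log axis, the authors' signal; orange, IDR summits; grey, summits of the pooled list only; blue bar, the gene; grey bars, other protein-coding genes. Signal is highest near the start of ph-p, E(z) and brm, within the trx gene, and outside the gene at ph-d, Pc, Psc, Su(z)2 and ash1.

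The maps of summits around each gene use 1 start per gene, the 5′-most. The summits at -450 bp of ph-p, -390 bp of ph-d and -15 bp of Psc, each upstream of an internal TSS, are therefore drawn within the gene. They show that the strongest summit of a window lay at the gene's own start in only some of the genes. It was within 500 bp of an own TSS at ph-p, E(z) and brm, and elsewhere at ph-d, Pc, Psc, Su(z)2, trx and ash1.

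Psc and Su(z)2 are neighbouring paralogs on chromosome 2R that run away from each other, with 15506 bp between them (Psc chr2R:12965997-12980994, minus strand; Su(z)2 chr2R:12996501-13007911, plus strand). Between them lay 2 IDR summits, each the strongest of its gene's window. The one on the Psc side, at -4218 bp from Psc and -155 bp from the noncoding RNA gene lncRNA:CR44339, had a signal of 9109.5 and rank 40 (34, 37 and 44 in replicates 1, 2 and 3, 38.3 ± 5.13, SD, n = 3). The one on the Su(z)2 side, at -4859 bp from Su(z)2, was 1080 bp wide, a width reached by 0.730% of IDR peaks, and ranked 802 (669, 832 and 891, 797 ± 115).

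Both genes had promoter summits, and all of these were weaker than the IDR summits between the genes. At Psc, the summit at -15 bp of an internal TSS had a signal of 551 and rank 4454 (4554, 6486 and 3213). It lay within the gene, 0.321 kb past the 5′-most TSS. The summit at +122 bp of the 5′-most TSS had a signal of 266 and rank 8617 (8637, 11895 and 11362). At Su(z)2, the summit at +35 bp had a signal of 322 and rank 7355 (7699, 8936 and 7091). Within Psc, counted from the internal TSS, intron summits stood at +5083 bp, rank 705 (974, 692 and 581), and at +7759 bp, rank 8727 (20544, 8481 and 11128). The first of these intron summits was strong in every replicate, and the second was among the strongest 9459 peaks of replicate 2 alone.

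Past the start of Su(z)2, distances were counted from its internal TSS. An intron summit at +8314 bp ranked 5978 (8615, 6786 and 5194). Beyond the 3′ end, intergenic summits at +11202 and +11963 bp ranked 3084 (3002, 2944 and 3985) and 5741 (7799, 5409 and 6989). The Su(z)2 window gained most from the longer pooled list, with 13 pooled summits and 14 in each full replicate list, against 5 in the IDR list. Of the 10 genes it and trx had the most summits below the IDR threshold.

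E(z), the PRC2 methyltransferase (chr3L:10634575-10638130, minus strand), had a single summit in every list. It lay at +122 bp, in a peak at chr3L:10637744-10638287, with a signal of 5156 and rank 170 (110, 215 and 153 in replicates 1, 2 and 3, 159 ± 52.8, SD, n = 3). Cnep1r2, which encodes a regulatory subunit of a nuclear envelope phosphatase, starts 16 bp from E(z) on the other strand, with its TSS at -16 bp, so the peak belongs to both promoters. Its window held 8 other protein-coding genes and no other summit.

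The pho window (chr4:1172469-1181628, minus strand) held no summit in the IDR, pooled or replicate lists. Chromosome 4, the small and largely heterochromatic chromosome, held 8 IDR peaks in all, or 0.0593 per 10 kb, against 0.707 over the 6 arms, and 29 pooled peaks. The replicates differed there, with 115, 33 and 11 peaks in replicates 1, 2 and 3. Of its 80 protein-coding genes, 8 had an IDR summit in the window, so pho was like most genes of that chromosome. The nearest IDR summit was 108763 bp away and ranked 9203. In replicates 1 and 2 the nearest summits were 17764 and 17809 bp away, by the transcription factor gene Mitf, with ranks 4276 and 2665, and in replicate 3 the nearest was 670588 bp away. Repeated 36-bp words made up 11.3% of the pho window.

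Among the Trithorax group genes, brm (chr3L:15970082-15982869, minus strand) had its strongest summit at its own promoter. It lay at -138 bp, with a signal of 5769 and rank 136 (84, 244 and 78 in replicates 1, 2 and 3, 135 ± 94.2, SD, n = 3), and it ranked weakest in replicate 2. The same summit was at -128 bp of Arl1, a small GTPase gene of the Golgi on the other strand, and nothing in the lists assigns it to one of them. The third intron of brm holds other genes, and 3 more IDR summits lay there. They were at +2742 bp, 7 bp from the TSS of CG17027, with rank 6142 (7757, 4945 and 11087), at +5084 bp with rank 2550 (3775, 2458 and 2446), and at +6029 bp, -50 bp from CG17029, with rank 4407 (6377, 4095 and 4974). A count of 4 summits or more was found in 11.8% of protein-coding genes.

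At trx (chr3R:14263358-14286903, minus strand) the main peak was in the first of 8 introns and not at the promoter. The summit at +3030 bp had a signal of 7384 and rank 68 (102, 59 and 61 in replicates 1, 2 and 3, 74.0 ± 24.3, SD, n = 3), in an interval of 933 bp, a width reached by 1.39% of IDR peaks. Other summits of the same intron were at +7059 bp with rank 3284 (4302, 3180 and 3727), +3762 bp with rank 4240 (7358, 4456 and 2369) and +2261 bp with rank 6935 (7875, 5925 and 15196). A weaker one at +1122 bp ranked 7828 (20126, 12321 and 5519). The strongest stood well ahead of the rest in all replicates, while the weak ones changed places.

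No IDR summit was within 500 bp of the trx TSS. The pooled list had one there at +88 bp with rank 10991, past the end of the IDR list, and the strongest in each replicate was at +2 bp with rank 8084 in replicate 1, at +272 bp with rank 12594 in replicate 2 and at -56 bp with rank 26083 in replicate 3. Upstream of trx, 3 IDR summits were at the gene red. Those in its promoter were at -272 bp from its nearest TSS with rank 965 (1283, 844 and 1077) and at -207 bp from another of its TSSs with rank 3926 (4251, 4380 and 3672). The one in its intron, at +1163 bp, ranked 5152 (5900, 5032 and 7082).

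At ash1 (chr3L:19590773-19598755, minus strand) the promoter had no summit in any list, nor had that of the divergent gene Taf6, a subunit gene of the general transcription factor TFIID, whose TSS is at -333 bp. The strongest of all 37 summits lay at the other end of the gene. It was at -90 bp of CG14100, 8141 bp downstream of the ash1 TSS, in a peak at chr3L:19590317-19590892 that overlaps the 3′ end of ash1. Its signal was 18872 and its rank 4, and it was the strongest peak of all in replicates 1 and 3 and the one of rank 7 in replicate 2 (3.00 ± 3.46, SD, n = 3). The other IDR summit of the window was at -25 bp of CG9330 and also in the promoter of CG9231, with rank 6831 (8173, 7980 and 7221).

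The wider pathway was described with 57 other genes of the same groups. Promoters with an IDR summit numbered 15, or 26.3%, near the 22.5% of all protein-coding genes, and 8 had one matched in all 3 replicates, against 15.8%. A summit in the window was found for 36, or 63.2%, against 53.7%. In the strongest 9459 peaks of replicates 1, 2 and 3, the promoter count was 27, 15 and 13, or 47.4%, 26.3% and 22.8%, a mean of 18.3 genes ± 7.57 (SD, n = 3), against 29.5%, 23.2% and 21.7% of all protein-coding genes. The share was near that of all protein-coding genes in the IDR list and in replicates 2 and 3, and above it in replicate 1.

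**Figure D5:**
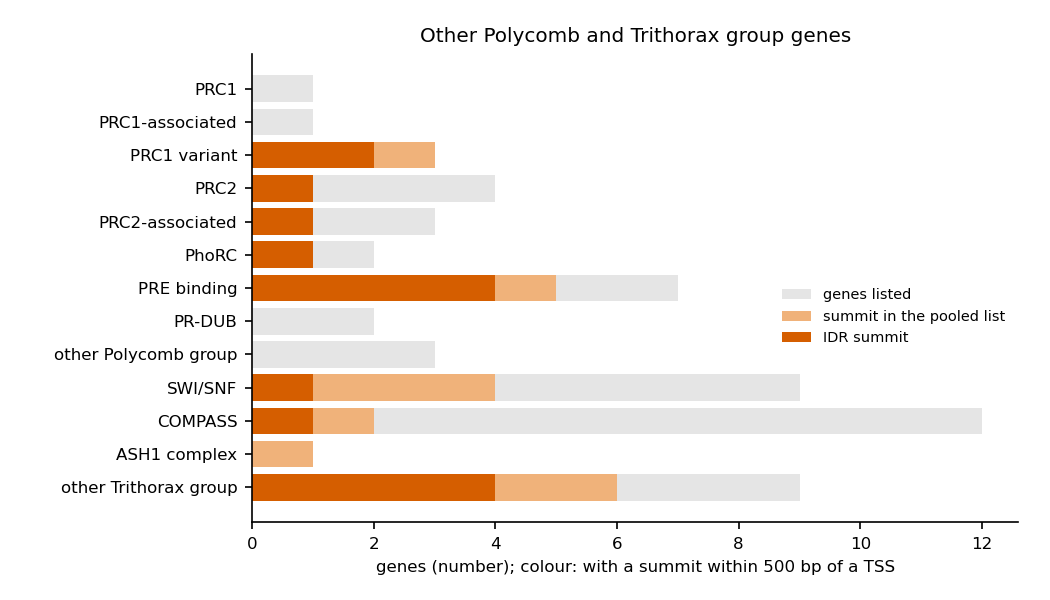
Number of other Polycomb and Trithorax group genes (horizontal axis) in each complex or class (vertical axis), with dark orange for a promoter summit in the IDR list, light orange for one in the pooled list only and grey for the rest. Of 7 genes of proteins that bind Polycomb response elements (PRE), 4 had an IDR summit, and of 12 COMPASS genes 1 had one. The share over all protein-coding genes was 22.5%.

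By complex, as the plot of other Polycomb and Trithorax group genes shows, counts were small. The remaining canonical PRC1 gene, Sce, which encodes the ubiquitin ligase subunit, had no promoter summit, nor had its associate Scm. Of the 4 other core PRC2 genes, Su(z)12 had one, which lay nearest the TSS of Pfdn6, and esc, escl and Caf1-55 had none. Of the 2 other PhoRC genes, phol had a weak one (rank 9308) and Sfmbt none. In the SWI/SNF remodeller 1 of 9 genes had one (11.1%), and in the COMPASS methyltransferase complexes 1 of 12 (8.33%). Of the other Trithorax group genes 4 of 9 had one (44.4%). Over all protein-coding genes the share was 22.5%, and so few genes per complex do not set the complexes apart.

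The strongest promoter summit was matched in all 3 replicates in 7 of these genes. Trl, which encodes GAGA factor, ranked 980 (847, 1209 and 845 in replicates 1, 2 and 3), and nej, the CBP acetyltransferase, ranked 1896 (1532, 1935 and 2270). The Mediator kinase module gene skd ranked 2129 (1753, 2533 and 2254), although its summit was nearer to the TSS of Pdss2. The PRE-binding genes lolal and psq ranked 3226 (3170, 3361 and 3423) and 5108 (3786, 6935 and 4898). The SWI/SNF scaffold gene mor ranked 3565 (2144, 8044 and 2460), and the demethylase gene Kdm2 ranked 5098 (5432, 4569 and 6768). The promoter summits of ph-p, brm and E(z), at ranks 10, 136 and 170, were stronger than all of these. Those of ph-d, Psc and Su(z)2, at ranks 3211, 4454 and 7355, were weaker than those of Trl, nej and skd.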

How the data were processed

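CG2678 tagged with GFP was measured by ChIP-seq in 3 biological replicates of whole embryos (1 group, sheared to fragments of 200 to 800 bp, per the labels). The 5 peak lists used are in dm6 coordinates, were called by the authors against a control alignment shared by all replicates, and comprise 3 replicate lists, a pooled list and an IDR list derived from them, per the deposited file descriptions. The aligner, the peak caller, their versions and the IDR threshold were not given in the sources used here. The signal of a peak (column 7) is the authors' own value as deposited. Because it may scale with depth, it served for ranking within each list alone. The deposited q-values were not used. Depth is unknown, so no counting interval could be given.

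Gene models were those of Ensembl release 115 (BDGP6.54), and bases came from the RefSeq copy of the same assembly. A summit was a promoter summit within 500 bp of any annotated TSS. Otherwise it fell in the first that applied of 5′ UTR, coding exon, 3′ UTR, noncoding exon, intron or intergenic. It was matched in a replicate when a summit lay within 100 bp among that replicate's strongest peaks, as many as in the IDR list (9459). Sequence was scored in 101 bp around the summit, and repeats as 36-bp words occurring more than once. The genes and lists were chosen with earlier results of these data known. Every promoter summit of the 10 genes was named with up to 5 other summits per gene by signal (the summit of trx at +1122 bp was added after its value was seen), a neighbour where its TSS was nearest within 500 bp, and of the pathway list up to 10 genes with the strongest matched promoter summit. Of 58 listed pathway genes 57 were found, 3 by a synonym, and 1 was an older name of Su(z)2 and was left out. No test was made, since there is 1 group. The summit assignment and matching were tested on simulated data with planted summits. Python 3.11.15, numpy 2.4.6, pandas 2.3.3 and matplotlib 3.10.9 were used. Alternatives were other windows, promoter distances, matching distances, thresholds and start sites, and leaving out each replicate.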

Additional observations from a re-analysis of the deposited data

How the results depend on the processing

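Of 58 alternative settings, 49 moved a value by less than its spread between replicates or, for a count, by less than 1.5 times. With windows of the gene body alone, the IDR summits numbered 22 (37 with 5 kb on each side), those matched in all 3 replicates 16 (31) and the promoter share was 50% (54.1%). The promoter share was 45.5% with 10 kb on each side, 37.8% with promoters of 250 bp, 62.2% with 1000 bp, and 40.5% with the 5′-most TSS of each gene alone. With the stronger part of the IDR list only, 7 other Polycomb and Trithorax group genes had a promoter summit (15). With as few as 4730 peaks per replicate, a mean of 4.33 of the 10 genes had a promoter summit (6.67). The causes were not tested beyond the construction of each setting. Leaving out each replicate in turn gave 31 to 34 matched summits, 6 genes with a matched promoter summit each time, and a mean of 6.0 to 7.0 genes with a promoter summit in the replicates' own lists. No paired analysis was possible because the samples form 1 group. The unknown depth limits what can be said of weak peaks, and the lists end at 30000 peaks, so a summit not listed, as at pho, may lie below that limit.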
